A study of Mus musculus with 9 samples.

Results

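The genes described here are the C-type lectin genes of mouse lung whose symbol begins with Clec, a number and a letter, which is a choice by name and not by any measured value. The deposited table held 32 such genes among 34638, and 24 of the 32 lie on chromosome 6. Lung RNA came from 9 wild-type C57BL/6 mice in 3 groups of 3. PBS mice were controls that received PBS into the trachea. IL-33 mice received 0.5 µg of recombinant mouse IL-33 into the trachea on each of days 0, 1, 2 and 3. IL-33+LM8 mice received the same IL-33 with LM8, an inhibitor of the adaptor MyD88, injected at 10 mg/kg into the peritoneum before the challenge. The methods of the study place lung collection on the day after the last challenge. They state age and sex (young adult females) for the control and IL-33 groups only. Age and sex of the IL-33+LM8 mice are not given in the sources used here. No group received LM8 alone, so an effect of LM8 in lung without IL-33 was not measured. The methods of the study and the sample labels describe no vehicle injection of the PBS or IL-33 mice. LM8 and its injection can therefore not be told apart.

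C-type lectins are proteins with a fold that, in many members, binds sugars in the presence of calcium. Myeloid members act as pattern recognition receptors. Clec7a (Dectin-1) binds fungal beta-glucan, while Clec4n (Dectin-2), Clec4d (MCL) and Clec4e (Mincle) bind mannans or mycobacterial glycolipids, and all of them pass their signal to the kinase Syk, the latter group through the adaptor Fcer1g. Others, such as Clec4a2 (DCIR1), Clec12a and Clec12b, carry an inhibitory motif in their tail. Not every gene with this name is a pattern recognition receptor: Clec14a and Clec1a are expressed by endothelium, Clec3b (tetranectin) and Clec11a are secreted, and Clec16a is an intracellular protein of endosomal trafficking.

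The upstream sequence of 3 genes is shown because they carry the main contrast of the values that follow: among tested members Clec7a had the greatest rise under IL-33, and Clec4d and Clec4e, neighbours on chromosome 6, were higher with LM8 than without it. Each sequence is the 250 bases before the gene's start in RefSeq, build GRCm38.p6, and reads 5′ to 3′ on the strand of the gene; of the start sites listed for Clec7a, the one farther upstream was used. Capitals mark matches on either strand to GAGGAA, the core of sites for the myeloid factor PU.1, to TTC followed after any 4 bases by GAA, a palindrome with a spacing that STAT6 binds, and to TTGCNNAA, a C/EBP form.
Clec7a (minus strand, chr6:129472786-129473035): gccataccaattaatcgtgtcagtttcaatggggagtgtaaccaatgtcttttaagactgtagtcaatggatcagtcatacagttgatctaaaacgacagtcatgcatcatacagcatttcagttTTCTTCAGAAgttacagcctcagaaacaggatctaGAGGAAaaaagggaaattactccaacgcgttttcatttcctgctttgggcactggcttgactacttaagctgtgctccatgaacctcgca
Clec4d (plus strand, chr6:123261857-123262106): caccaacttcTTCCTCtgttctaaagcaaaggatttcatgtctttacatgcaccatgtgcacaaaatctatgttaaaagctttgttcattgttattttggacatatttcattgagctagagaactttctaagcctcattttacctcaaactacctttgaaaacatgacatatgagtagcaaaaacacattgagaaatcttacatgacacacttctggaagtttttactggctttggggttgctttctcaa
Clec4e (minus strand, chr6:123289872-123290121): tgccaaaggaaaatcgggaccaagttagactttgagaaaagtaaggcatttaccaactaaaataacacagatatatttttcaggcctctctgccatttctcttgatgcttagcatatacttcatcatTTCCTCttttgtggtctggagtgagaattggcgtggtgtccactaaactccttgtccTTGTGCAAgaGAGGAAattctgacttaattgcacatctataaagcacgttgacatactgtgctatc
RefSeq promoters matched 25 of the 32 symbols. Over windows of the same 250 bases, GAGGAA was present for 14 of these 25 genes and in 23.3% of all 32851 promoters, and the STAT6 palindrome for 4 genes (Clec4a1, Clec4b2, Clec5a and Clec7a) and in 5.85% of all promoters. Other letters searched were TTNCNNAA, a broad C/EBP form found for 13 genes and in 36.8% of promoters, TGANTCA of AP-1 for 5 genes and 6.75%, and TATAAA for 7 genes and 12.4%. The narrower TTGCNNAA, present for 4 genes and in 9.56% of promoters, was added after the matches of the first 5 motifs had been seen, and every match to it is also a match to the broad form. Clec4d has no match to the narrow form and 3 to the broad one. These matches describe letters only.

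Between 53877663 and 90607218 reads per mouse were counted on genes, and no library was a copy of another of its group. FPKM is the count divided by gene length and library size, and each comparison was tested over every gene whose FPKM averaged 0.5 or more across the 9 mice. A gene was called at an adjusted p under 0.05 (edgeR's quasi-likelihood test, Benjamini-Hochberg over all genes tested) with a log2 fold change of 1 or more in size. Of the 32 Clec genes, 21 passed the filter and 11 did not. As a check of the tissue label, 7 epithelial markers summed to 14048 FPKM or more and 3 leukocyte markers to 63.3 or more in every mouse. Fewer cells of a type and less RNA per cell cannot be told apart in such bulk samples. The 3 comparisons share mice with each other, so their values are given side by side and not as independent results.

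**Figure D1:**
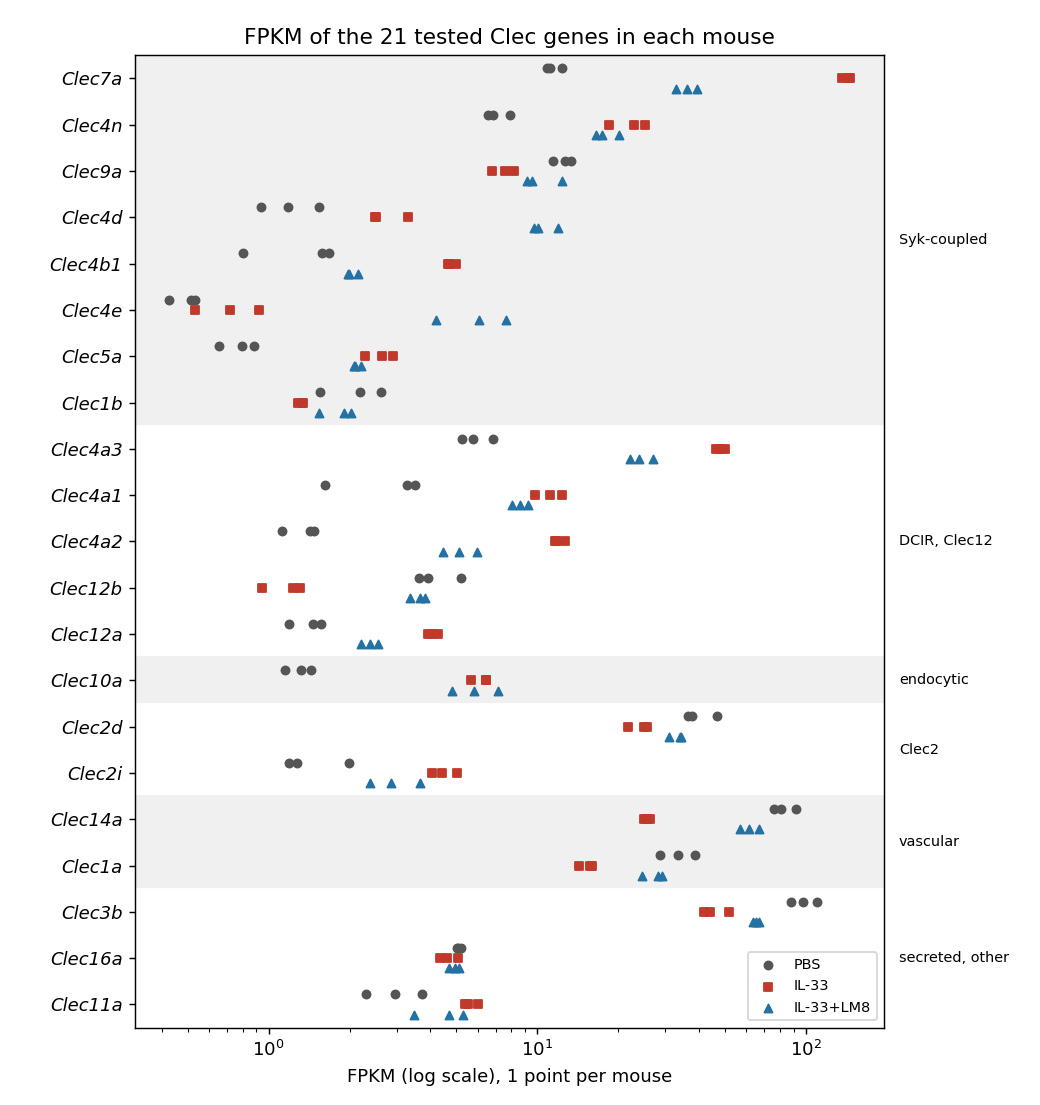
FPKM of the 21 tested Clec genes on a log axis, with 1 point per mouse and the groups in separate colours and symbols. The IL-33 points of Clec7a (137 to 146) lie far to the right of its PBS points (10.8 to 12.3), whereas the IL-33+LM8 points of Clec4d and Clec4e lie to the right of both other groups.

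With IL-33, 5 of 8 tested Syk-coupled receptors rose, as did 4 of 5 DCIR and Clec12 genes, while Clec12b and both vascular members fell. In IL-33 compared with PBS lungs, 15 of the 21 tested Clec genes were called, 11 higher and 4 lower, where 17% of all 16831 genes tested were called, 10.8% higher and 6.24% lower. The median log2 fold change of the 21 genes was 1.17, against -0.01 over all genes. With LM8 added, 7 of 21 were called against IL-33 alone, 4 higher and 3 lower, where the share over all genes was 5.39% (1.46% higher and 3.93% lower). IL-33+LM8 lungs still had 10 of 21 called higher than PBS and 0 lower by edgeR, where 7.33% of all 16829 genes were called, 5.87% higher. DESeq2 also called 0 lower, and 4 were lower at an unadjusted p under 0.05, where 19.9% of all genes were.

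With no minimum fold, an adjusted p under 0.05 was reached by 19 of 21 genes for IL-33 against PBS, 12 higher and 7 lower, where 54.6% of all genes reached it (27.4% higher and 27.2% lower). For IL-33+LM8 against IL-33 it was reached by 15, 9 higher and 6 lower, where the share was 26.5% (12.6% higher and 13.9% lower), and for IL-33+LM8 against PBS by 13, 11 higher and 2 lower (Clec14a and Clec3b), where it was 29.7% (16.3% higher and 13.4% lower). Groups did not overlap in FPKM for 12 genes above and 7 below PBS with IL-33, where 63.4% of all genes did not (31.7% in each direction). With LM8, 9 genes lay above and 9 below the IL-33 mice, where the share was 43.2% (21.2% above and 22% below), and 12 lay above and 3 below PBS, where it was 47.3% (23.4% above and 23.9% below).

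**Figure D2:**
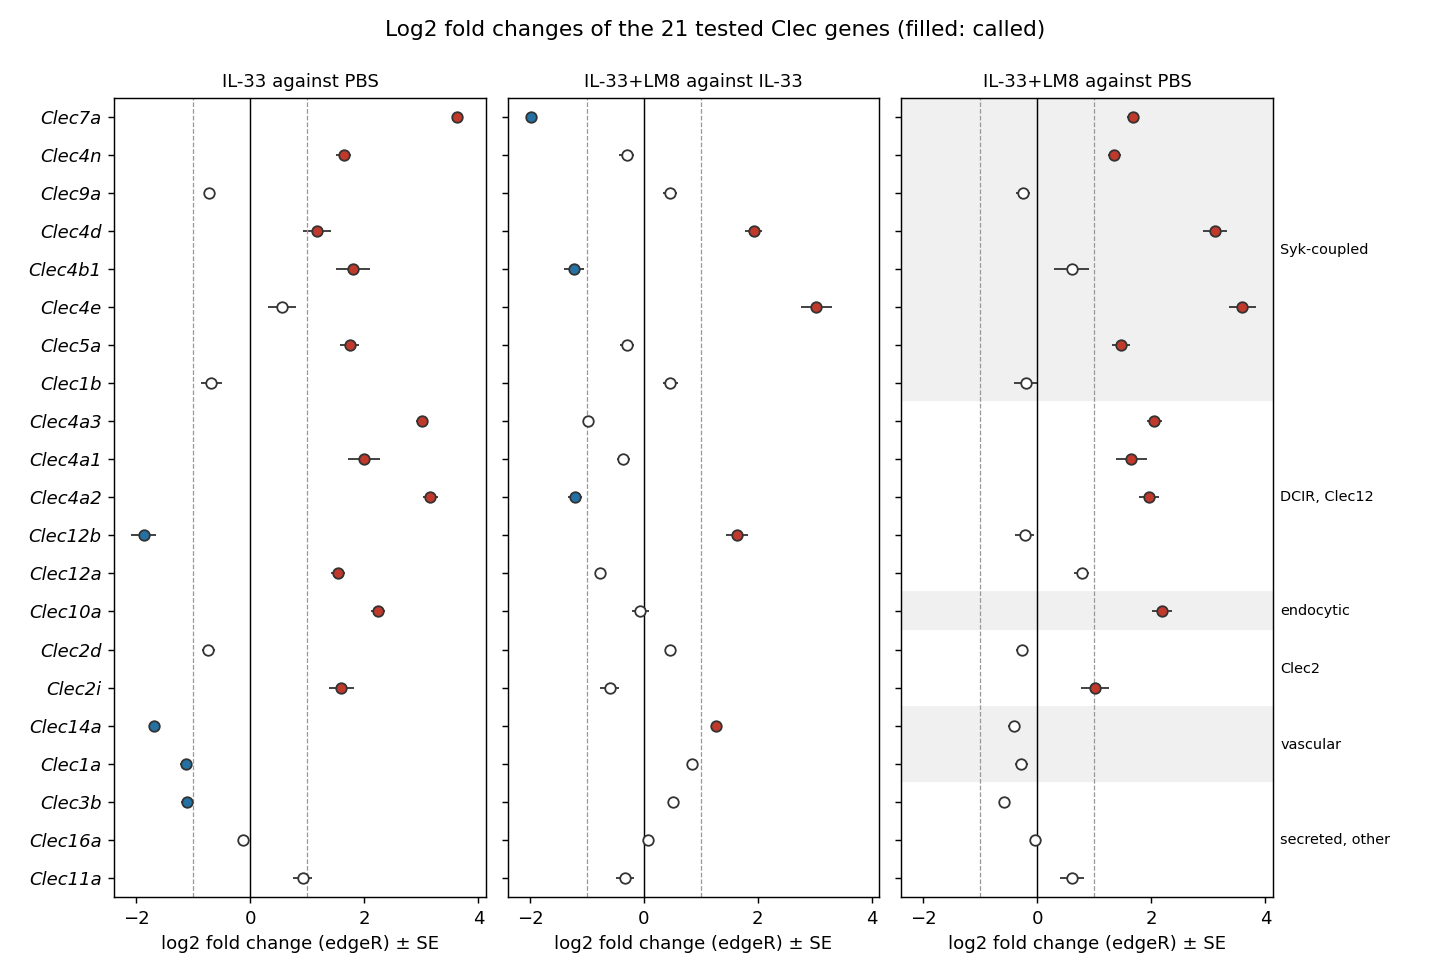
Log2 fold change from edgeR with its standard error for each tested Clec gene in the 3 comparisons, with filled points for called genes (red higher, blue lower), open points for genes not called and dashed lines at -1 and 1. Clec7a moves from 3.63 to -1.98 between the first and the second panel, while Clec4e goes from 0.55 to 3.03.

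Clec7a, the receptor for beta-glucan, had the greatest rise of the tested members. Its FPKM was 11.1, 12.3 and 10.8 in the PBS mice, 144, 137 and 146 in the IL-33 mice and 32.8, 39.2 and 36.1 in the IL-33+LM8 mice. No 2 groups overlapped. The mean was 12.4-fold higher with IL-33 than in PBS (log2 fold change 3.63, SE 0.0679, adjusted p = 3.93e-07). IL-33+LM8 mice had a 3.95-fold lower mean than IL-33 mice (log2 fold change -1.98, SE 0.080, adjusted p = 3.29e-05), and remained 3.15-fold above PBS (log2 fold change 1.67, adjusted p = 4.61e-05). Of the distance between the PBS and IL-33 means, 18.8% was left with LM8, and between 17.6% and 20.1% when any 1 mouse was left out. Within each library, Clec7a divided by Ptprc, the pan-leukocyte gene CD45, was 1.48 ± 0.112 in PBS, 6.91 ± 0.183 in IL-33 and 2.36 ± 0.496 in IL-33+LM8 (mean ± SD, n = 3), so its rise with IL-33 exceeded that of Ptprc. These ratios, like the others below, were chosen after the values were seen and carry no test.

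Clec4d and Clec4e, which together form a receptor for mycobacterial glycolipid, took a different course. Clec4d was at 1.18, 1.55 and 0.938 FPKM in PBS, 2.52, 3.29 and 2.50 in IL-33, and 11.9, 9.74 and 10.0 in IL-33+LM8 mice. Clec4e was at 0.427, 0.516 and 0.533 in PBS, 0.720, 0.924 and 0.531 in IL-33, and 7.68, 4.19 and 6.06 in IL-33+LM8 mice. For both genes every IL-33+LM8 mouse lay above every mouse of the other groups, whereas PBS and IL-33 overlapped for Clec4e. Clec4d rose with IL-33 (log2 fold change 1.17, SE 0.246, adjusted p = 0.00539) and rose again with LM8 (1.93, SE 0.153, adjusted p = 0.00023), by 3.82-fold. Clec4e was not called with IL-33 (0.55, SE 0.244, adjusted p = 0.0929) and rose 8.24-fold with LM8 (log2 fold change 3.03, SE 0.275, adjusted p = 0.000355), to 12.2-fold above PBS.

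The summed FPKM of 9 neutrophil markers, which moved in the same order, was 29.0 to 35.7 in PBS, 196 to 220 in IL-33 and 925 to 1067 in IL-33+LM8 lungs, and all 9 markers passed the filter. Divided by S100a9, an abundant neutrophil gene, Clec4d was 0.0816 ± 0.0107 in PBS, 0.0581 ± 0.00483 in IL-33 and 0.0208 ± 0.000512 in IL-33+LM8 (n = 3). Clec4e over S100a9 was 0.0344 ± 0.0112, 0.0152 ± 0.00344 and 0.0116 ± 0.00261. From PBS to IL-33+LM8 both receptors thus rose by less than S100a9, while the Clec4e ratios of the IL-33 and IL-33+LM8 mice overlapped. This holds for S100a9 and not for every marker of the list. For IL-33+LM8 against PBS the log2 fold changes of the 9 markers ran from 2.82 to 6.92 (median 5.10). Clec4d had 3.12 and Clec4e 3.60, both above the lowest marker and below the median. Against IL-33 the median of the markers was 2.60, between Clec4d (1.93) and Clec4e (3.03). The part of neutrophils in the rises of Clec4d and Clec4e was not tested.

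**Figure D3:**
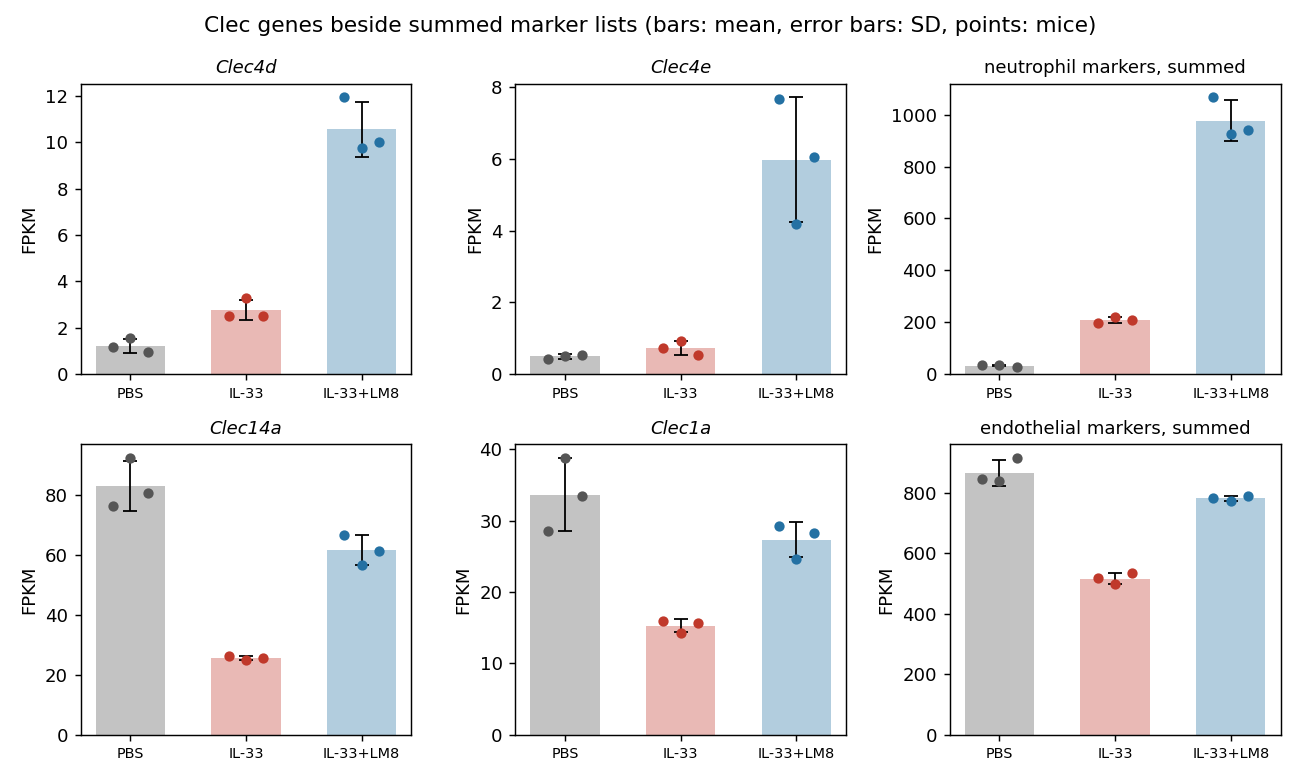
FPKM of Clec4d, Clec4e, Clec14a and Clec1a beside the summed FPKM of 9 neutrophil and 8 endothelial markers, with bars for the mean of 3 mice, error bars for the SD and points for mice. The upper row is highest in IL-33+LM8 lungs and the lower row is lowest in IL-33 lungs.

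Of the other Syk-coupled receptors, Clec4n, Clec5a and Clec4b1 rose with IL-33, and of these Clec4b1 fell with LM8. Clec4n (Dectin-2) was at 6.58, 7.88 and 6.87 FPKM in PBS, 22.9, 18.5 and 25.2 in IL-33 and 17.4, 20.1 and 16.5 in IL-33+LM8 mice. It rose with IL-33 (log2 fold change 1.64, SE 0.134), the 2 IL-33 groups overlapped, and LM8 gave -0.30 (SE 0.132, adjusted p = 0.141). Clec5a, a receptor that signals through Tyrobp, had 0.656, 0.798 and 0.883 FPKM in PBS, 2.90, 2.65 and 2.29 in IL-33 and 2.08, 2.20 and 2.10 in IL-33+LM8 mice. Its log2 fold change was 1.74 with IL-33, and -0.29 (adjusted p = 0.122) with LM8. Both stayed above PBS with LM8, by 1.35 and 1.46 on the log2 scale.

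Clec4b1 (DCAR) is found on dendritic cells. It was at 0.802, 1.57 and 1.68 FPKM in PBS, 4.99, 4.67 and 4.69 in IL-33 and 2.15, 2.00 and 1.98 in IL-33+LM8 mice. The log2 fold change was 1.80 (SE 0.296) with IL-33, -1.22 (SE 0.176, adjusted p = 0.00232) with LM8, and 0.60 (adjusted p = 0.185) between IL-33+LM8 and PBS. Of its 31-base words, 19.0% also occur in another Clec gene, mainly Clec4a2, so its reads may be shared.

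Clec9a, the receptor for dead cells on cross-presenting dendritic cells, and Clec1b (CLEC-2), the podoplanin receptor of platelets, were not called in any comparison. Clec9a was at 11.4, 13.3 and 12.7 FPKM in PBS, 7.61, 8.17 and 6.79 in IL-33 and 12.3, 9.15 and 9.59 in IL-33+LM8 mice, with a log2 fold change of -0.73 (adjusted p = 0.000419) for IL-33 against PBS, under the minimum fold. Xcr1, a marker of the same dendritic cells that is low in PBS lungs, had a mean FPKM of 0.694 in PBS and 2.14 in IL-33. The Clec9a to Xcr1 ratio was 18.0 ± 0.966 in PBS, 3.57 ± 0.707 in IL-33 and 5.29 ± 1.00 in IL-33+LM8 (n = 3). This ratio rests on 1 marker. Of the 7 dendritic cell markers, 6 were called higher with IL-33, Xcr1 among them, while Zbtb46 had a log2 fold change of -0.45. Clec1b averaged 2.12 ± 0.535, 1.32 ± 0.0313 and 1.82 ± 0.249 FPKM in the 3 groups (n = 3), while the summed FPKM of 7 platelet markers was 18.3 to 22.5, 15.9 to 17.2 and 22.5 to 27.6. Of the 5 platelet markers tested, 3 were called lower and 1 higher with IL-33, where 6.24% and 10.8% of all genes were. In the table, Clec9a and Clec1b overlap by 474 bp on the same strand and Gm43914 overlaps Clec9a by 594 bp, so the counts of both genes are uncertain.

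Among the DCIR and Clec12 genes, 4 of 5 tested rose with IL-33 and 1 fell, where 10.8% of all genes were called higher and 6.24% lower. Clec4a3 (DCIR3) was at 5.23, 6.82 and 5.74 FPKM in PBS, 47.9, 50.0 and 46.4 in IL-33 and 22.1, 26.9 and 23.9 in IL-33+LM8 mice, with no overlap between groups. Its log2 fold change was 3.02 (SE 0.105, adjusted p = 1.65e-06) with IL-33, and -0.98 (SE 0.0883, adjusted p = 0.000344) with LM8, just short of the minimum fold. Without IL-33+LM8 mouse 2 the latter became -1.07 and the gene was called. Clec4a2 (DCIR1) was at 1.42, 1.48 and 1.12 in PBS, 11.7, 11.7 and 12.7 in IL-33 and 4.47, 5.98 and 5.10 in IL-33+LM8 mice. It rose by 3.16 (SE 0.13) and then fell by 1.21 (SE 0.12, adjusted p = 0.000468) on the log2 scale. Clec4a2 shares 9.69% of its 31-base words with other members.

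Clec4a1 (DCIR4) was at 1.62, 3.27 and 3.49 FPKM in PBS, 11.2, 9.81 and 12.4 in IL-33 and 8.09, 9.23 and 8.62 in IL-33+LM8 mice. It rose with IL-33 (log2 fold change 1.99, SE 0.278) and with LM8 had -0.36 (adjusted p = 0.0561). Clec12a, an inhibitory receptor for uric acid crystals, was at 1.19, 1.57 and 1.46 in PBS, 4.29, 4.05 and 3.90 in IL-33 and 2.55, 2.21 and 2.38 in IL-33+LM8 mice. Its log2 fold change was 1.54 (SE 0.12) with IL-33 and -0.78 (adjusted p = 0.000774) with LM8. The groups of Clec12a did not overlap.

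Clec12b, also inhibitory, moved the other way. It was at 3.94, 5.20 and 3.63 FPKM in PBS, 1.31, 1.24 and 0.944 in IL-33 and 3.81, 3.36 and 3.67 in IL-33+LM8 mice, so every IL-33 mouse lay below all others. It fell by 1.87 (SE 0.217, adjusted p = 0.000293) with IL-33 and rose by 1.63 (SE 0.189, adjusted p = 0.000904) with LM8, on the log2 scale.

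Beside these genes, the summed FPKM of 7 interstitial macrophage markers was 291 to 314 in PBS, 809 to 893 in IL-33 and 363 to 405 in IL-33+LM8 lungs. The 7 dendritic cell markers summed to 30.4 to 31.9, 160 to 195 and 97.9 to 114, the 5 monocyte markers to 15.4 to 16.7, 41.7 to 46.2 and 44.1 to 45.5, and the 7 alveolar macrophage markers to 71.4 to 96.3, 101 to 108 and 81.4 to 109. The alveolar macrophage sum does not speak for its genes, since with IL-33 3 were called lower (Cidec, Marco and Krt79) and 1 higher (Atp6v0d2), with a median log2 fold change of -0.95. With IL-33, 5 of 7 interstitial macrophage, 6 of 7 dendritic cell and 2 of 5 monocyte markers were called higher and 0 lower, although 1, 1 and 2 of them were lower at an adjusted p under 0.05. Among all genes tested, 10.8% were called higher and 6.24% lower, and 27.2% were lower at that adjusted p. The 6 eosinophil markers summed to 0.865 to 1.51, 98.3 to 104 and 23.0 to 26.1, with Epx at or under the floor of 3 counts in all PBS mice. The part of these cell types in the receptor values was not tested.

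Clec10a (MGL1), an endocytic receptor for terminal galactose residues on macrophages and dendritic cells, rose with IL-33 and was also called above PBS with LM8. It was at 1.15, 1.32 and 1.44 FPKM in PBS, 6.43, 6.44 and 5.65 in IL-33 and 4.82, 7.11 and 5.82 in IL-33+LM8 mice, so the IL-33 groups overlapped. The log2 fold change was 2.23 (SE 0.123, adjusted p = 9.04e-06) against PBS with IL-33 and 2.19 (SE 0.176) with both agents. The difference between the 2 challenged groups was -0.06 (SE 0.149, adjusted p = 0.816), and it became 0.07 without IL-33+LM8 mouse 1. Of the PBS to IL-33 distance, 94.8% was left with LM8, and between 82.5% and 106% when any 1 mouse was left out. The share was 73.4% for Clec5a, 72.2% for Clec4n, 70.2% for Clec4a1, 43.5% for Clec4a3 and 18.8% for Clec7a.

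The Clec2 genes encode ligands or ligand-like proteins for Klrb1 receptors of NK cells. Clec2d (Clr-b) was at 37.6, 46.7 and 36.6 FPKM in PBS, 21.8, 24.9 and 25.7 in IL-33 and 34.2, 34.1 and 30.9 in IL-33+LM8 mice. With -0.74 (adjusted p = 0.00128) for IL-33 and 0.45 for LM8 against IL-33, it was not called. Clec2i (Clr-g) was at 1.27, 2.00 and 1.19 in PBS, 4.40, 4.07 and 5.02 in IL-33 and 3.65, 2.39 and 2.85 in IL-33+LM8 mice, and rose with IL-33 (log2 fold change 1.59, SE 0.217). Against PBS its value with both agents was 1.01 (SE 0.248, adjusted p = 0.0216), a call lost when PBS mouse 1 (0.91), PBS mouse 3 (0.86), IL-33+LM8 mouse 1 (0.83) or IL-33+LM8 mouse 3 (1.04, adjusted p = 0.054) was left out. Clec2i overlaps BC035044 on the other strand and shares 10.7% of its 31-base words with other members, and strand use in the counting is not stated.

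Both vascular members fell with IL-33, and Clec14a rose with LM8 against IL-33 alone. Clec14a, an endothelial protein that binds Mmrn2, was at 76.2, 92.2 and 80.6 FPKM in PBS, 26.3, 24.9 and 25.7 in IL-33 and 66.6, 56.7 and 61.3 in IL-33+LM8 mice, with no overlap. It fell by 1.70 (SE 0.0744, adjusted p = 3.57e-06) and rose with LM8 by 1.26 (SE 0.0648, adjusted p = 5.1e-05) on the log2 scale, and was at -0.42 (adjusted p = 0.0132) against PBS. Clec1a was at 28.5, 38.8 and 33.5 in PBS, 15.9, 14.3 and 15.7 in IL-33 and 29.2, 24.6 and 28.2 in IL-33+LM8 mice. It fell by 1.13 (SE 0.106) with IL-33, and LM8 gave 0.84 (adjusted p = 0.000328), not called. The summed FPKM of 8 endothelial markers was 838 to 914, 497 to 533 and 771 to 789 in the 3 groups. Divided by Pecam1, an endothelial gene, Clec14a was 0.572 ± 0.0748 in PBS, 0.265 ± 0.00745 in IL-33 and 0.451 ± 0.0253 in IL-33+LM8 (n = 3), so it fell by more than Pecam1. Clec1a over Pecam1 was 0.232 ± 0.0428, 0.158 ± 0.00409 and 0.201 ± 0.0132, likewise with no overlap between PBS and IL-33. Divided by Cdh5, another endothelial gene, Clec14a was 0.420 ± 0.0788, 0.271 ± 0.0108 and 0.405 ± 0.00519, without overlap between PBS and IL-33, and Clec1a was 0.170 ± 0.0407, 0.161 ± 0.0041 and 0.180 ± 0.00751, with overlap. The part of endothelial cells in these falls was not tested.

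Of the secreted and intracellular members, Clec3b, a plasminogen-binding protein and the most abundant Clec gene per length over the 9 mice together, though not in IL-33 lungs, was at 87.9, 110 and 97.5 FPKM in PBS, 41.6, 51.8 and 43.8 in IL-33 and 65.0, 66.9 and 63.4 in IL-33+LM8 mice. It fell by 1.11 (SE 0.108, adjusted p = 0.000129) with IL-33, and with LM8 was 0.51 above IL-33 and -0.58 from PBS, neither called. The 6 fibroblast markers summed to 232 to 253, 338 to 389 and 184 to 195. This list was mixed: with IL-33, 3 of its genes (the collagens) were called higher and Pdgfra lower, and the 6 log2 fold changes ran from -1.12 to 2.15. Among all genes tested, 10.8% were called higher and 6.24% lower. The part of fibroblasts in the Clec3b values was not tested. Clec11a, a growth factor for bone, averaged 2.99 ± 0.71, 5.66 ± 0.321 and 4.50 ± 0.93 FPKM (n = 3) and had 0.92 (adjusted p = 0.00318) with IL-33, which became 1.10 and was called without PBS mouse 3. Clec16a, at 5.11 ± 0.10, 4.68 ± 0.359 and 4.93 ± 0.222 FPKM (n = 3), overlapped between all groups.

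In PBS lungs the most abundant members per length were Clec3b and Clec14a, and in IL-33 lungs Clec7a. FPKM summed over the 32 genes was 289 to 359 in PBS, 393 to 400 in IL-33 and 332 to 344 in IL-33+LM8 lungs. Clec3b held 30.7% of it in PBS and Clec14a 26.0%, while Clec7a held 3.59%. In IL-33 lungs Clec7a held 36.0%, Clec4a3 12.2%, Clec3b 11.6% and Clec14a 6.49%. In IL-33+LM8 lungs Clec3b (19.3%) and Clec14a (18.2%) again exceeded Clec7a (10.7%).

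**Figure D4:**
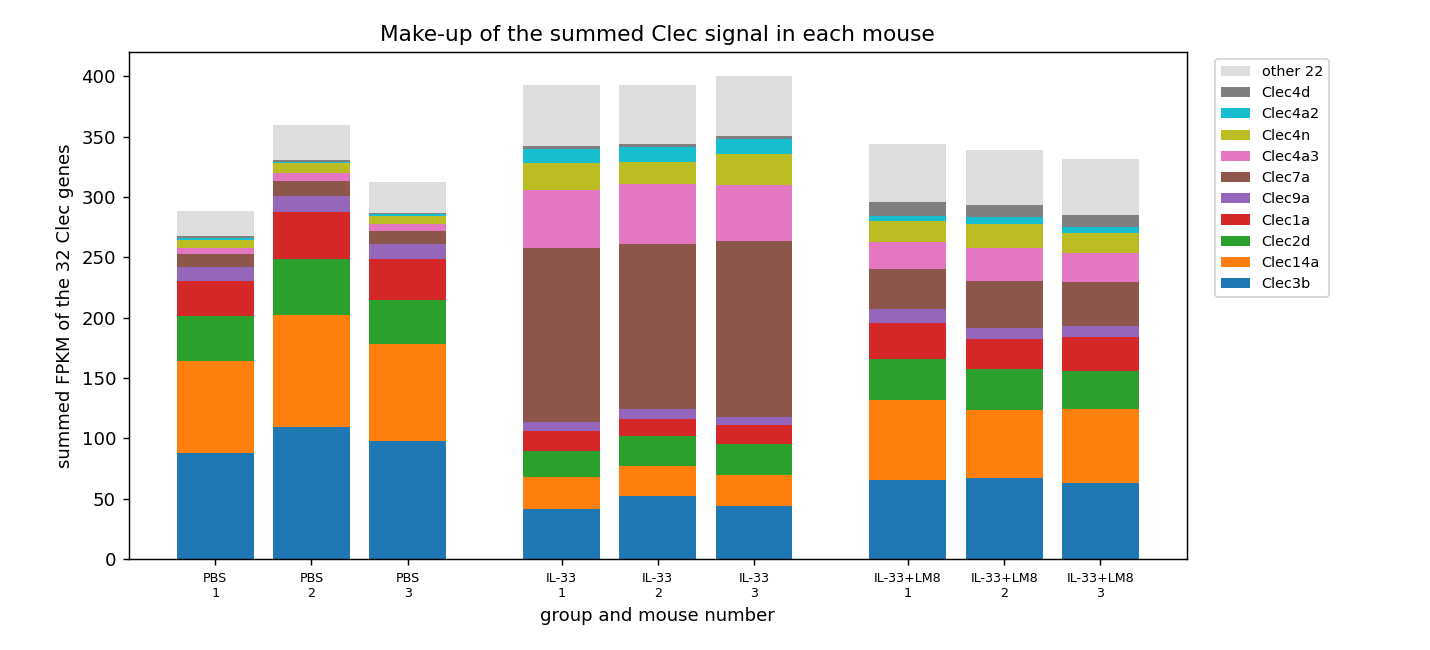
Summed FPKM of the 32 Clec genes in each mouse, with the bar divided among 10 named genes and the other 22. Clec7a widens from 3.59% of the PBS bars to 36.0% of the IL-33 bars and is at 10.7% with LM8.

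By position, the table's coordinates place 9 members in a group of 368023 bp on chromosome 6 from Clec4a1 to Clec4e, of which 7 were tested. With IL-33, 6 of these 7 were called higher, all but Clec4e, where 10.8% of all genes tested were. Neighbours within this group differed with LM8: Clec4b1 and Clec4a2 fell, and Clec4d and Clec4e, 6523 bp apart on opposite strands, rose. Of the 783 31-base words of Clec4b1, 143 also occur in Clec4a2, so these 2 falls may rest partly on the same reads. Over all genes, 3.93% were called lower and 1.46% higher with LM8 against IL-33. A second group of 6 members, from Clec12a to Clec7a and all tested, spans 130087 bp and held both directions under IL-33. Clec12a and Clec7a were called higher and Clec12b and Clec1a lower, where 10.8% and 6.24% of all genes were. Clec1a and Clec7a are 9590 bp apart. No member's start and end in the table matched GENCODE M21 (GRCm38), although the submitters' notes name mm10, so the table's positions are given only as distances here.

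The 11 genes under the filter are described by counts. Clec2g had 10, 4 and 9 counts in PBS, 162, 135 and 111 in IL-33 and 29, 40 and 15 in IL-33+LM8 mice, with no overlap between groups. Without the filter its log2 fold change was 4.26 with IL-33 (SE 0.417, adjusted p = 0.000251) and -2.38 with LM8 (SE 0.483, adjusted p = 0.0169), past both thresholds. It overlaps Gm15987 on the other strand and shares 8.86% of its 31-base words with other members, so its reads are uncertain. Clec4b2 had 4, 0 and 0 counts in PBS, 51, 31 and 19 in IL-33 and 50, 8 and 19 in IL-33+LM8 mice, and Clec4a4 had 0, 8 and 0, then 18, 21 and 13, then 13, 0 and 13. Without the filter Clec4b2 had an adjusted p of 0.0272 with IL-33 and Clec4a4 of 0.23. Clec4g and Clec2l ranged from 12 to 116 counts, Clec4f from 0 to 88, Clec2e from 0 to 20, and Clec2f, Clec3a, Clec2h and Clec18a from 0 to 14. Clec2l was called lower with LM8 only under edgeR's own filter (log2 fold change -1.51, adjusted p = 0.0397), and not without a filter (adjusted p = 0.0604).

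Of 32 adaptors, kinases and factors downstream of these receptors, all tested, 17 rose with IL-33, where 10.8% of all genes were called higher. By edgeR and by DESeq2 0 were called lower, and 2 were lower at an unadjusted p under 0.05, where 29.9% of all genes were. The median log2 fold change was 1.13. Syk had 1.78 (SE 0.0739), Fcer1g 1.66 (SE 0.137), Tyrobp 1.43 (SE 0.0713) and Card9, which links Syk to NF-kB, 1.13 (SE 0.0792). The largest values were Btk at 2.11, Irf5 at 2.10, Vav1 at 1.97 and Malt1 at 1.79. With LM8 against IL-33, 0 of 32 were called by edgeR and by DESeq2, while 20 were lower and 2 higher at an unadjusted p under 0.05, where 19.4% and 19% of all genes were. At an adjusted p under 0.05 without a minimum fold, 19 were lower and 1 higher, where 26.5% of all genes passed in either direction. Syk had -0.71, Tyrobp -0.58, Card9 -0.50 and Fcer1g -0.31. Against PBS, 9 of 32 were called higher with both agents, where 5.87% of all genes were, Fgr (1.93) and Irf5 (1.48) among them. The 3 leukocyte markers summed to 63.3 to 68.5 FPKM in PBS, 244 to 257 in IL-33 and 159 to 171 in IL-33+LM8 lungs. Their log2 fold changes were 1.41 to 2.16 with IL-33 and -0.87 to -0.40 with LM8 against IL-33. The part of leukocyte numbers in the values of these 32 genes was not tested.

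Of 12 genes for ligands or partners, 10 were tested. With IL-33, Klrb1c (NK1.1) fell by 1.01 (SE 0.196, adjusted p = 0.00382) and was the only one called, where 6.24% of all genes were called lower. The call was lost without PBS mouse 2 (-0.83), IL-33 mouse 2 (-0.94) or IL-33 mouse 3 (-0.99), and also with the replicate block (-0.99), edgeR's own filter (-0.9997) and limma (-0.66 and -0.94). Pdpn, the ligand of Clec1b, had 0.29, Klrb1b, the receptor of Clec2d, 0.53, Anxa1, a ligand of Clec7a, 0.75 and Mmrn2 -0.08. With LM8, 0 of 10 were called by edgeR and DESeq2 against IL-33 or PBS, where 2 were higher and 3 lower, and 4 higher and 0 lower, at an unadjusted p under 0.05. The shares over all genes were 19% higher and 19.4% lower against IL-33, and 21.7% and 19.9% against PBS. With the replicate block 1 was called against PBS.

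Lectins of related type without the Clec name were measured for comparison, and 34 of 37 were tested. With IL-33, 14 were called higher and 1 lower, where 10.8% and 6.24% of all genes were. Mgl2, the partner gene of Clec10a, rose by 2.68 (SE 0.0659), Olr1, a receptor for oxidised LDL, by 2.82 (SE 0.0854), Klrg1 by 3.21 (SE 0.146) and the antimicrobial lectin Reg3g by 3.05 (SE 0.376), all on the log2 scale. Cd209e had 4, 0 and 41 counts in PBS, against 400 to 502 in IL-33 mice, so its fold rests on few reads. With LM8 against IL-33, Cd207 (langerin; 1.52, SE 0.250) and Cd209f (1.79, SE 0.255) rose and Olr1 fell by 1.46 (SE 0.136), the 3 genes called of 34, where 1.46% of all genes were called higher and 3.93% lower. Limma on log2(FPKM + 1) lost the calls of Cd207 (0.92) and Cd209f (0.93). Against PBS, 15 of 34 were called higher with both agents and 0 lower by edgeR and DESeq2, with 7 lower at an unadjusted p under 0.05, where 5.87% of all genes were called higher and 19.9% were lower at that unadjusted p. With limma on log2(FPKM + 1) 9 of the 34 were called higher against PBS.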

How the data were processed

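RNA-seq of lung total RNA (TRIzol, 1.0 µg, paired ends, Illumina NovaSeq) from 9 mice was analysed from 1 table in which the authors deposited raw read counts and FPKM per gene. The submitters' processing notes name HISAT2 2.0, StringTie 1.3.0, Bowtie 0.12.2 and mm10 without their roles. Counts were tested with edgeR 4.0.16 (R 4.3.3, TMM, quasi-likelihood), fitted per comparison to the 6 mice it involves, for genes averaging 0.5 FPKM or more and counted at least once in them. The SE is the log2 fold change over the square root of F. Folds are ratios of mean FPKM. The floor was 3 counts, for counting error only, since reads carry no molecular identifiers. An exact permutation test of 3 against 3 cannot go below p = 0.1. That samples are separate mice rests on the labels. Alternatives were DESeq2 1.42.0, limma 3.58.1 on log2(FPKM + 1) and log2(FPKM + 0.1), other scalings and filters, 1 fit for 9 mice, replicate number as a block, and leaving out mice singly. The fits were tested on simulated data. Deviations from group means correlated between same-numbered PBS and IL-33+LM8 mice (r = 0.39, 0.43 and 0.73). Mice 1 and 2 of these groups also correlated across numbers (0.32 and 0.31), so these values do not show pairing by number. No source says what a number marks. Members called in any comparison or among the 8 most abundant are given per mouse, and other genes come from the lists' largest calls and known partners. Genes, lists, motifs and ratios were chosen with earlier results of these data known.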

Additional observations from a re-analysis of the deposited data

How the results depend on the processing

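The members called by edgeR numbered 15 in IL-33 against PBS (14 to 19 under the alternatives), 7 in IL-33+LM8 against IL-33 (6 to 15) and 10 in IL-33+LM8 against PBS (8 to 13). Without a minimum fold change the second comparison gave 15 members, 9 higher and 6 lower. When mice were left out singly, counts were 15 to 16, 7 to 8 and 9 to 10. Signs of a difference turned for 1 member, Clec10a in IL-33+LM8 against IL-33 (-0.22 to 0.071 when mice were left out singly, turning without IL-33+LM8 mouse 1), and for Mmrn2 in IL-33 against PBS (-0.14 to 0.026, turning without PBS mouse 1), neither of them called. On log2(FPKM + 1), which shrinks low genes, limma lost Clec4d in IL-33 against PBS (0.76), Clec4b1 in IL-33+LM8 against IL-33 (-0.93) and Clec5a (0.82) and Clec2i (0.68) in IL-33+LM8 against PBS. The replicate block left 15, 7 and 10 members called and changed no member's call. Deviations of IL-33 mice and same-numbered mice of the other groups had r from -0.55 to 0.38, positive only for mouse 2 (0.38 with PBS and 0.31 with IL-33+LM8). The deepest libraries of each group deviated together (r = 0.73, 0.73 and 0.76). An alternative chosen after seeing the data that left these libraries out gave 16, 7 and 9 members. The 11 genes under the filter averaged less than 0.5 FPKM over the 9 mice, and several of them rest on few counts.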
